A study of Mus musculus with 4 samples.

Results

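Transcripts of 9 genes of bone morphogenetic protein (BMP) signalling were measured in fibroblasts with and without deletion of Rbpj. They were the ligands Bmp2 and Bmp4, the secreted antagonist Grem1, the membrane and cytoplasmic inhibitors Bambi and Smad6, and the target genes Id1, Id2, Id3 and Id4. The genes were chosen by name, with earlier results of these data known. Every probe set that the platform annotation assigns to 1 of them alone was used, which gave 13 of 34945 single-gene probe sets and 9 of 18193 genes. Transcript levels came from 4 Affymetrix mouse arrays hybridised with biotin-labelled cRNA from dermal fibroblasts, the matrix-producing cells of the skin, all on a C57BL/6 background. The study asked which transcripts differ when RBP-J kappa, the DNA-binding partner of Notch receptors encoded by Rbpj, is deleted. In vitro, the deleted cells had received an adenovirus labelled Cre and the control cells an adenovirus labelled GFP. In vivo, the deleted fibroblasts came from mice labelled ColI Cre with loxP sites on both Rbpj alleles, and the control from mice with the same loxP alleles and no Cre in the label. Cre expression in cells other than fibroblasts of these mice, pooling of animals and culture of the in vivo cells before extraction are not given in the sources used here. Each group had 1 array, so no difference within a pair has a replicate check, no p-value is given for it, and the number of arrays limits the precision.

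BMP ligands bind pairs of type I and type II receptor kinases, which phosphorylate SMAD1, SMAD5 and SMAD9, and these enter the nucleus with SMAD4. The Id genes are among their best known targets and encode helix-loop-helix proteins without a DNA-binding region, which hold E proteins and other basic helix-loop-helix factors away from DNA. Secreted antagonists such as gremlin 1 capture the ligand, whereas BAMBI, a receptor-like protein without a kinase, and SMAD6 limit the signal at and below the receptor. In skin, BMP signals are known for their part in hair follicle cycling and in dermal papilla cells.

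The promoter stretches of the members whose values stand out below are shown because RBP-J kappa and the SMAD proteins are DNA-binding factors. They are the 250 bases before the transcription start, from RefSeq on GRCm38.p6, read 5′ to 3′ on the gene's strand. The promoter table held 6 of the 9 members (Bmp4, Grem1, Smad6, Id2, Id3 and Id4), and Bmp2, Bambi and Id1 are named only. Capitals mark TGGGAA, the core that RBP-J kappa recognises, and GGCGCC, a GC-rich element of the kind bound by BMP-activated SMADs, each on either strand (TTCCCA for the first, whereas the second reads the same on both).
Grem1 (chr2:113758649-113758898, minus strand): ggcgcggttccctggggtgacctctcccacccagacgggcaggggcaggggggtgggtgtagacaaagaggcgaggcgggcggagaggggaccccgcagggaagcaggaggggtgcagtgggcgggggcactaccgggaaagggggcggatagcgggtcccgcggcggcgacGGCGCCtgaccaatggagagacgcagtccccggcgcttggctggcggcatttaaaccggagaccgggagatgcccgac
Bmp4 (chr14:46390670-46390919, minus strand): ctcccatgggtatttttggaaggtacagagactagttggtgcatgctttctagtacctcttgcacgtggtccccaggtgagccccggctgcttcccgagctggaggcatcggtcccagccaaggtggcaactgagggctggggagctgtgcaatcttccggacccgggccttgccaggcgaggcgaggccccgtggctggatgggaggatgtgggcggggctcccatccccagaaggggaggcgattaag
Id3 (chr4:136143572-136143821, plus strand): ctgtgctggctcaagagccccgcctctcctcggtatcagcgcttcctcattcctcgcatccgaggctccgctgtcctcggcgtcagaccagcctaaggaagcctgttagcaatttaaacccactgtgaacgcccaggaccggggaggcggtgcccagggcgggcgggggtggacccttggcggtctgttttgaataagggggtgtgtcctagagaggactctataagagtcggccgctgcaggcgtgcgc
Id4 (chr13:48260866-48261115, plus strand): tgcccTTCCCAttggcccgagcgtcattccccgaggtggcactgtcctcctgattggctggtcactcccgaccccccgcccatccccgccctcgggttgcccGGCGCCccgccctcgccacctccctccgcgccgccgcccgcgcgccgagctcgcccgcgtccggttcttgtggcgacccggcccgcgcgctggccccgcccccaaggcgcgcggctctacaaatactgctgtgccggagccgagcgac
Of the 6 stretches, 1 held TGGGAA, that of Id4 with its reverse complement from 245 to 240 bases before the start, against 21.6% of 32851 promoters of the same length. GGCGCC was found in 3 of 6 (Grem1, Id2 and Id4), against 9.59% of all promoters, and the stretches were rich in G and C (62.8% to 75.6%). The matches describe letters in this window only.

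The deposited log2 values correlated more closely within a system (r = 0.983 in vitro and 0.982 in vivo across all probe sets) than between systems (0.949 to 0.963). Of 12 fibroblast markers 11 had a probe set, and all 11 exceeded the level cutoff of 5.28 (log2) on each array. The cutoff is the 40th percentile of gene means, each gene being read on its brightest probe set, and the 10916 genes at or above it were analysed. Rbpj had in vitro log2 differences, deleted minus control, of -1.11, -1.34 and 0.10 on its 3 probe sets, and in vivo differences of -0.10, -0.83 and -0.49. All 3 were over the cutoff on all 4 arrays, at 6.40 to 7.48 in the deleted culture and 6.60 to 8.51 in the in vivo deleted array. The position of these probe sets relative to the deleted exons was not used here. The 3′ probe set of the Gapdh control exceeded the 5′ one by 0.04 in the deleted and 1.01 in the control culture, and by 0.12 in the deleted and 0.15 in the control in vivo array. For beta-actin the excess was 0.39 in the deleted and 1.09 in the control culture, and for pyruvate carboxylase 1.94 and 3.27. In vivo it was 0.15 and 0.37 for beta-actin, and 0.80 and 1.09 for pyruvate carboxylase, deleted array first. The part of this in disagreements between probe sets of a gene was not tested. Shorter genes were lower in the deleted culture, with a median difference of -0.20 in the 2723 genes with the shortest span and 0.03 in the 2723 with the longest.

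Grem1 stood apart from the other members in vivo. Its probe set read 9.92 in the deleted and 8.63 in the control array in vivo, and 7.70 in the deleted and 8.0 in the control array in vitro (all log2 signals). The in vivo deleted array was thus the highest of the 4 and the in vitro pair the lowest. The difference was 1.30 in vivo, or 2.45-fold higher with the deletion, and -0.30 in vitro. Grem1 was the only 1 of 8 members analysed with a 2-fold difference in vivo, against 6.62% of the genes analysed (2.81% upward with the deletion and 3.81% downward). Its in vivo difference exceeded that of 98.7% of these genes. Under the 8 alternative settings it lay between 1.30 and 1.33. Grem1 has 1 probe set, so the level filters and probe set choices among these could not change its value.

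Markers of other cell types were also higher in the in vivo deleted array. Of 16 keratinocyte markers 11 were at least 2-fold higher and none 2-fold lower, and their summed linear signal was 7515 in the deleted and 781 in the control array, with Krt14 at 10.94 in the deleted and 5.93 in the control array on the log2 scale. Of 16 skeletal muscle markers 14 were at least 2-fold higher, with summed signals of 5352 in the deleted and 1198 in the control array, and of 9 proliferation markers 4 were (12356 in the deleted and 5968 in the control array). Summed fibroblast markers stood at 67935 in the deleted and 70087 in the control array, with 1 of 11 at least 2-fold lower. The keratinocyte regulator Trp63 read 5.19 in the deleted and 5.64 in the control array, and the muscle regulator Myod1 read 4.94 in the deleted and 4.13 in the control array, so both were below the cutoff in the deleted array, whereas the muscle regulator Myog read 7.0 in the deleted and 4.88 in the control array. The part of these cells in the difference of Grem1 or of any other member was not tested. In bulk samples a change in the number of cells and a change in RNA per cell cannot be told apart. Endothelial markers (8 with a probe set, 2 over the cutoff on each array), smooth muscle and pericyte (7), adipocyte (4), and Schwann and melanocyte markers (6) included none with a 2-fold difference in vivo, and 1 of 8 macrophage markers was 2-fold lower. In vitro, 3 of 16 keratinocyte markers were 2-fold lower in the deleted culture (summed signals of 1046 in the deleted and 1547 in the control culture), as was 1 of 16 muscle markers, and the other 7 lists held none past 2-fold.

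**Figure D1:**
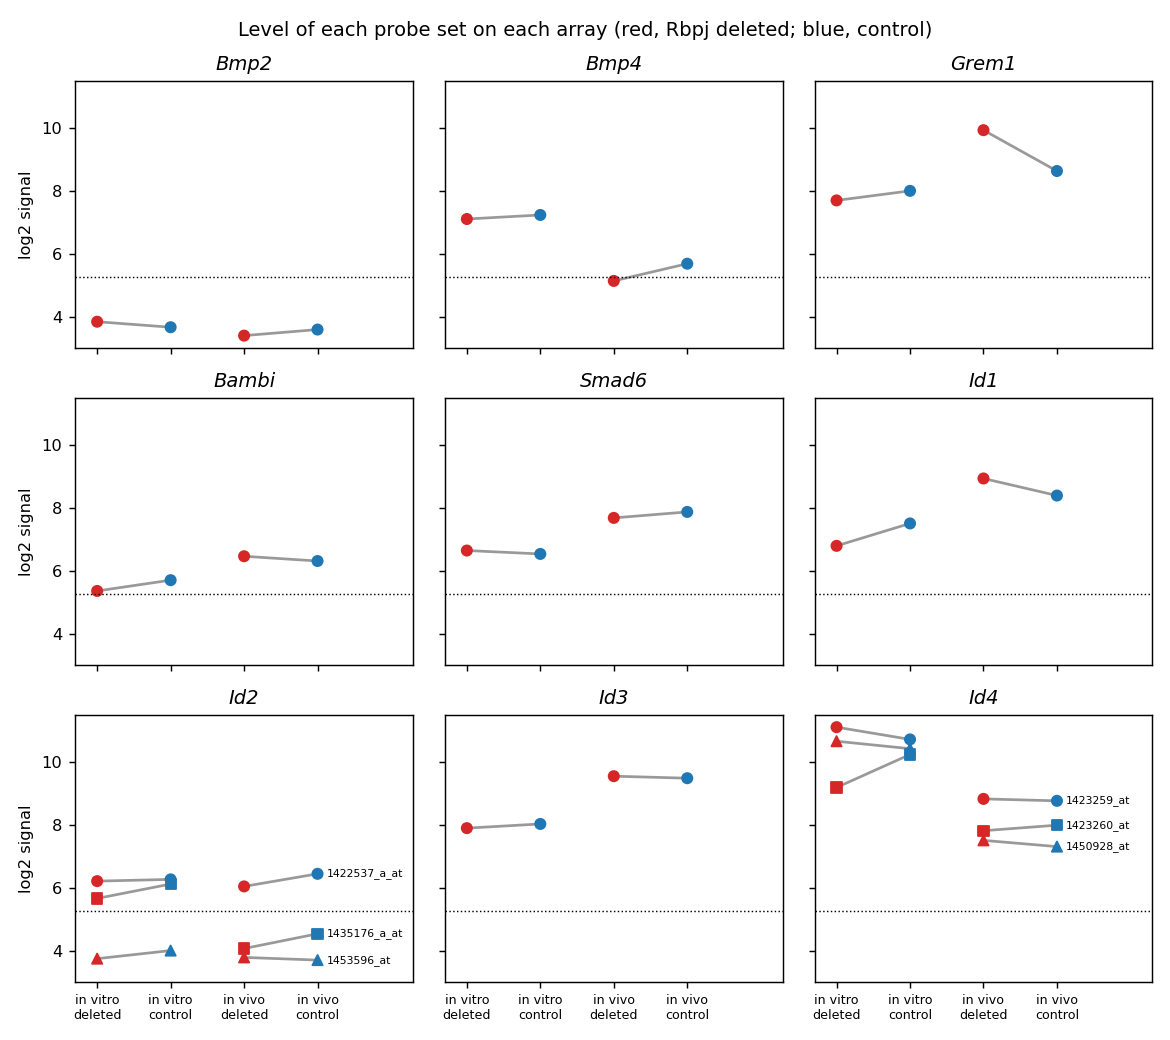
Log2 signal (vertical axis, after quantile normalization) of every probe set of the 9 genes on the 4 arrays, with the deleted array of each pair in red left of its control in blue; grey lines join the arrays of a pair, symbols separate the probe sets of a gene, and the dotted line is the level cutoff of 5.28. Grem1 is highest in the in vivo deleted array (9.92), Bmp2 is below the cutoff on all 4 arrays, and the Id4 probe sets are all higher in vitro than in vivo.

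Neither ligand differed by 2-fold. Bmp2 read 3.85 in the deleted and 3.68 in the control culture, and 3.41 in the deleted and 3.60 in the control array in vivo. All 4 values were below the cutoff, so Bmp2 did not pass the level filter and its differences (0.17 and -0.19) lie in the range of background signal. Bmp4, a ligand made by dermal cells, read 7.11 in the deleted and 7.24 in the control culture. In vivo it read 5.14 in the deleted and 5.69 in the control array, the first of these being under the cutoff. Bmp4 therefore differed by -0.13 in vitro and by -0.55 in vivo, the lowest in vivo difference of the 8 members, yet 12.6% of all genes analysed had a lower one.

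The 2 inhibitors that act within the receiving cell differed little. Bambi read 5.36 in the deleted and 5.71 in the control culture, and 6.47 in the deleted and 6.31 in the control array in vivo. Its differences of -0.34 and 0.15 were both within the middle range of all genes (percentiles 23.2 and 69.8). The probe set of Bambi-ps1, annotated as a transcribed pseudogene, stayed below the cutoff on all arrays (3.90 to 4.19). Smad6 read 6.65 in the deleted and 6.54 in the control culture, and 7.68 in the deleted and 7.87 in the control array in vivo, with differences of 0.11 and -0.19.

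Among the Id genes, Id1 had the largest in vitro difference of any member read on its brightest probe set. It read 6.79 in the deleted and 7.51 in the control culture, and 8.93 in the deleted and 8.39 in the control array in vivo. Id1 was thus 1.64-fold lower with the deletion in vitro (log2 -0.71) and 1.46-fold higher in vivo (0.54). Both values fell short of 2-fold, at percentiles 5.75 and 90.9 of all genes analysed. Id1 was 1 of 8 members with opposite signs and a difference over 0.5 in both pairs, as were 1.88% of all genes, and the difference between the pairs could not be tested with 1 array a group. Its span of 1160 bases puts Id1 among those 2723 shortest genes, of which 12.8% were at or below its in vitro value, against 2.46% of the longest. With the trend on gene length removed, the in vitro difference of Id1 was -0.39, and that of Id4 (0.61) was then the larger. The Id4 value is that of its brightest probe set, and another Id4 probe set was at -1.05 before that step.

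Id3, like Id1 a well known BMP target, read 7.90 in the deleted and 8.03 in the control culture, and 9.54 in the deleted and 9.48 in the control array in vivo. Its differences were small (-0.13 and 0.06). Id2 has 3 probe sets. The brightest, 1422537_a_at, read 6.21 in the deleted and 6.27 in the control culture, and 6.05 in the deleted and 6.45 in the control array in vivo. The second, 1435176_a_at, read 5.67 and 6.12 in the deleted and control cultures. In vivo it read 4.08 and 4.55 in the deleted and control arrays, both under the cutoff. The third, 1453596_at, was between 3.71 and 4.01 on all arrays, below the cutoff. The first 2 probe sets of Id2 were lower in the deleted array of each pair, by 0.06 to 0.47 on the log2 scale. The in vitro difference of the brightest, -0.06, became 0.05 with loess within pairs and 0.007 when centred on the median difference.

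Id4 gave the clearest disagreement between probe sets of 1 gene. Probe set 1423259_at read 11.10 in the deleted and 10.71 in the control culture, and 1450928_at read 10.65 in the deleted and 10.42 in the control culture. Probe set 1423260_at read 9.18 in the deleted and 10.23 in the control culture. The in vitro differences were thus 0.39 and 0.24 on the first pair of probe sets and -1.05, a 2.07-fold deficit, on the other. Such a range over probe sets (1.44) or a wider one was found for 7.52% of 4575 genes with several probe sets over the cutoff, and no direction is read for Id4 in vitro. In vivo the same 3 probe sets read 8.82, 7.51 and 7.81 in the deleted and 8.76, 7.31 and 7.99 in the control array, and differed by 0.06, 0.20 and -0.18. Counted by probe set, 1 of the 10 with a mean over the cutoff differed by 2-fold in vitro (1423260_at), against 5.03% of all single-gene probe sets over it, and 1 of 10 in vivo (Grem1), against 6.20%.

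**Figure D2:**
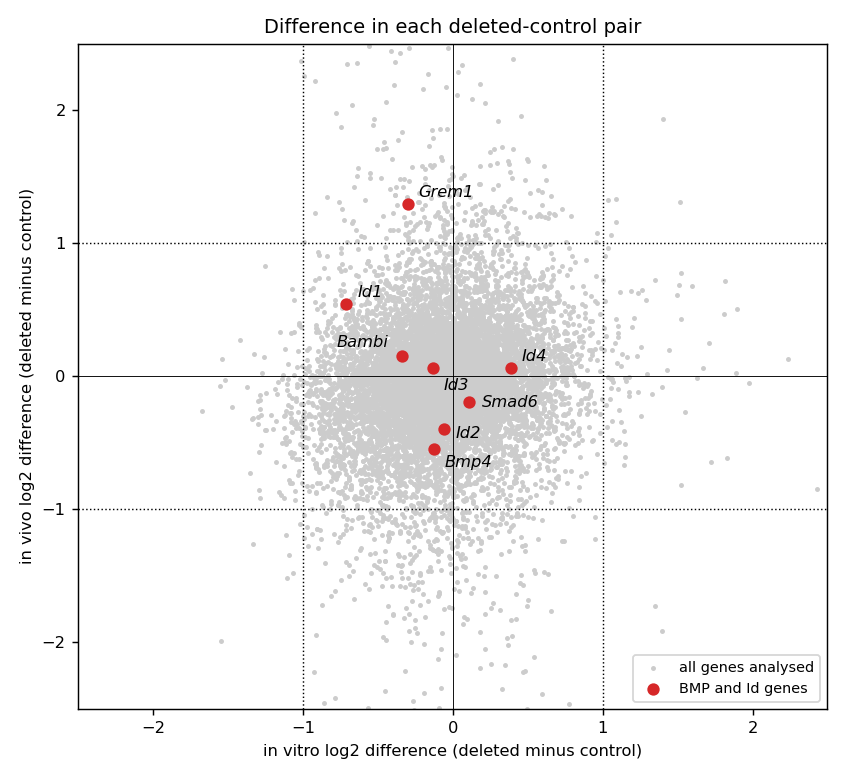
Log2 difference, deleted minus control, in the in vitro pair (horizontal axis) and the in vivo pair (vertical axis), for all genes analysed (grey) and the 8 BMP and Id genes over the level cutoff (red); dotted lines mark 2-fold, and 52 genes lie outside the axes. Grem1 alone is past 2-fold, in vivo, and Id1 lies to the upper left at -0.71 and 0.54.

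Over the 8 members the median difference was -0.13 in vitro, against -0.06 for all genes analysed, and 0.06 in vivo, against -0.03. In vitro, on the brightest probe set, 2 members (Smad6 and Id4) were higher and 6 lower, none by 2-fold, although the probe sets of Id4 disagree in direction. Of the 2723 shortest genes 71.8% were lower in the deleted culture, and of the longest 46.2%. Bmp4, Bambi, Id1, Id2, Id3 and Id4 are among those shortest genes. With the trend on gene length removed, 5 were higher and 3 lower in vitro, with a median of 0.07. Of all genes 1.93% were past 2-fold (0.788% upward and 1.15% downward). In vivo 5 members were higher and 3 lower. No direction of the members is read from the counts of either pair. Signs were opposite in the pairs for 5 of 8 members, and for 44.7% of all genes. A deletion effect shared by both systems was fitted with limma over all 10916 genes with system as a covariate, so that the 2 pairs stand as replicates and 1 residual degree of freedom is left. No gene passed an adjusted p of 0.05 in either direction (0% called, lowest adjusted p 0.679), while 759 genes, 6.95%, had an unadjusted p under 0.05. None of the 8 members was among those, and their adjusted limma p-values ran from 0.717 (Bmp4, shared effect -0.34 ± 0.22 SE) to 0.977 (Id3, -0.03 ± 0.20). These SEs rest in part on the disagreement between the 2 pairs, which are different systems. The in vitro difference of Bmp4 was -0.13, and 0.066 with the length trend removed.

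The genes whose 4 values ran closest to those of Id1 and Grem1 were found by Euclidean distance over the 4 arrays after centring each gene on its mean. For Id1 they were Kif23 (distance 0.12), Prrc2c (0.12) and Fkbp11 (0.22). For Grem1 they were Tnnt3 (0.13), Cd24a (0.15) and Snhg4 (0.16). Tnnt3 read 6.78 in the deleted and 5.47 in the control array in vivo and was under the cutoff in vitro. It passed the level filter only through its in vivo levels. The search picks the closest of all genes analysed over only 4 arrays, so close matches are found by design. How close a match arises by chance was not counted. Whether these genes share regulation or a cell source with Id1 or Grem1 was not tested.

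Differences between the systems, averaged over deleted and control arrays, were larger than the deletion difference of either pair for the members analysed, except Id2. Between the control arrays alone, that of Grem1 (0.63) was smaller than its in vivo deletion difference (1.30). The system term of the same limma model was read after the values had been seen. Its residual is the disagreement between the 2 pairs in the deletion difference. With 1 array a group, its SE therefore measures no spread between replicates. The log2 difference, in vivo minus in vitro, was -2.11 ± 0.21 (SE) for Id4 (limma, adjusted p = 0.0248), -1.75 ± 0.22 for Bmp4 (adjusted p = 0.0357) and 1.55 ± 0.20 for Id3 (adjusted p = 0.0386). Thus 1 of 8 members was called higher and 2 lower, where 1.35% of all genes were called higher and 2.77% lower. When each gene was read as the median over its probe sets, 0 members were called higher and 1 lower, and with a variance trend 2 were called higher and 2 lower. All 3 Id4 probe sets were lower in vivo, with differences of -3.14 to -1.37 between the deleted arrays and of -3.11 to -1.95 between the control arrays. Smad6 (1.18), Id1 (1.51), Bambi (0.85) and Grem1 (1.43) had higher values in vivo among the deleted and among the control arrays but missed the threshold, with adjusted p-values from limma of 0.0581, 0.0846, 0.103 and 0.115 in that order. Id2 had a system difference of 0.0047 on its brightest probe set, whereas its second probe set differed by -1.59 between the deleted and by -1.58 between the control arrays. Each system was a separate set of 2 arrays, and a batch of arrays cannot be told apart from the system.

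**Figure D3:**
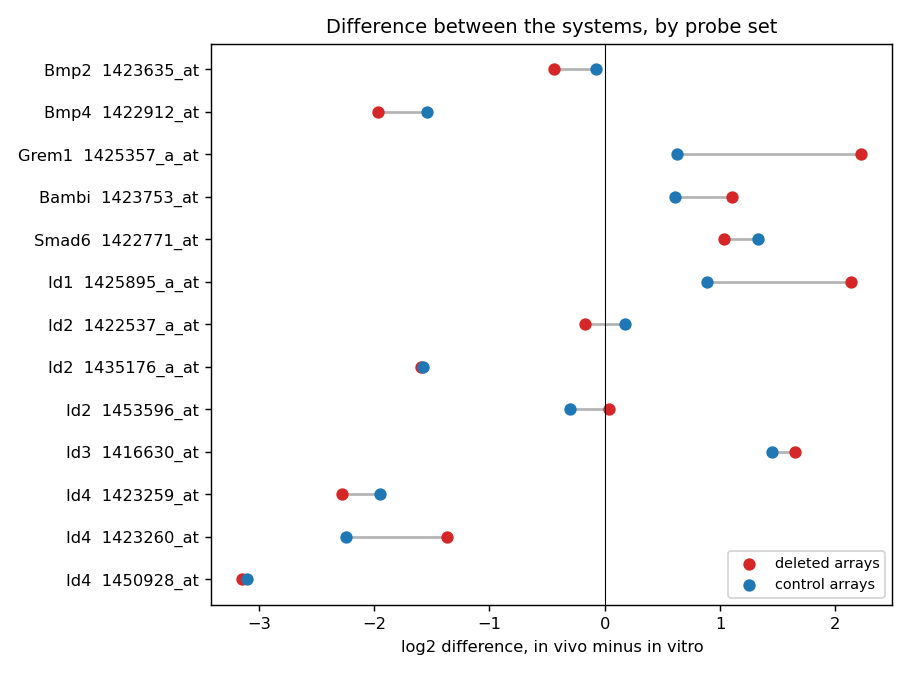
Log2 difference between the systems, in vivo minus in vitro (horizontal axis), for each probe set of the 9 genes, among the deleted arrays (red) and among the control arrays (blue). Bmp4 and all Id4 probe sets lie left of 0, while Grem1, Bambi, Smad6, Id1 and Id3 lie right of 0 in both colours; Grem1 has the widest gap between colours, at 2.23 for deleted and 0.63 for control arrays.

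The rest of the pathway was described with 6 lists of 77 genes, also chosen with earlier results of these data known. Of these genes 71 had a probe set and 50 passed the level filter. Of these 50, 2 in vitro and 3 in vivo were past 2-fold upward with the deletion, and none in vitro and 3 in vivo downward. Of the 2 in vitro, Chrdl1 passed the level filter only through the deleted culture, as given below. Over all genes analysed the shares were 0.788% in vitro and 2.81% in vivo upward, and 1.15% in vitro and 3.81% in vivo downward. The median difference was 0.10 in vitro and -0.0049 in vivo. None passed in the shared limma fit (lowest adjusted p 0.679). Of the other ligands, Bmp1, a protease that matures procollagen despite its name, and Bmp6 passed the level filter. Bmp6 read 7.90 in the deleted and 7.52 in the control culture, and 5.28 in the deleted and 5.52 in the control array in vivo, and its levels were thus higher in vitro, as those of Bmp4 were. The system difference of Bmp6 was -2.31 (limma, adjusted p = 0.0258), and it was the only 1 of the 50 genes to pass for system.

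Among receptors and co-receptors, 3 of 11 were at least 2-fold lower in the in vivo deleted array, where 3.81% of all genes were, and none in vitro, where 1.15% were. Neo1, which encodes neogenin, a receptor for the repulsive guidance molecules, read 7.21 in the deleted and 8.89 in the control array in vivo (3.19-fold lower), and 7.59 and 8.26 in the deleted and control cultures. Its second probe set over the cutoff was 0.99 lower in vivo on the log2 scale. Rgma, a guidance molecule that acts as a BMP co-receptor, read 6.89 in the deleted and 7.95 in the control array in vivo (2.08-fold lower). Acvr2a, a type II receptor shared by BMPs and activins, read 8.85 in the deleted and 9.90 in the control array in vivo (2.07-fold lower), and its other probe set differed by -1.27. In culture the same genes differed by -0.66, 0.33 and 0.44. The list's median was 0.29 in vitro and -0.25 in vivo. Acvr2b, the other activin type II receptor, had the largest difference in culture, at 5.11 in the deleted and 5.90 in the control array (log2 -0.79), the deleted value being under the cutoff. The type I receptor Bmpr1a, named after its values were seen, was higher in the deleted culture on 4 of its 5 probe sets over the cutoff, by 0.34 to 1.25, and lower by 0.31 on the other. These 4 had in vivo differences of -0.28 to -0.14, and the other 0.16.

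Of 11 other antagonists and extracellular modulators, 1 was 2-fold higher in each pair and none 2-fold lower. Of all genes, 0.788% in vitro and 2.81% in vivo were 2-fold higher, and 1.15% in vitro and 3.81% in vivo 2-fold lower. Fstl3, a follistatin relative that binds activins and BMPs, read 9.01 in the deleted and 7.83 in the control array in vivo (2.28-fold higher), and 7.13 and 7.21 in the deleted and control cultures. Chrdl1, a chordin relative, was 2.35-fold higher in the deleted culture on its brightest probe set, but the other probe set over the cutoff differed by -0.27. The brightest read 6.71 in the deleted and 5.48 in the control culture. In vivo it read 4.72 and 4.84 in the deleted and control arrays, both under the cutoff. Chrdl1 passed the level filter only through its level in the deleted culture. Twsg1, a chordin-binding modulator, was named after its values were seen. Its in vitro differences were 2.89, 1.83 and 0.51 on the 3 probe sets with a signal over the cutoff on some array. In vivo these probe sets differed by 0.26, 0.15 and -0.25. Of all single-gene probe sets over the cutoff, 5.03% were past 2-fold in vitro. The part of the 3′ to 5′ contrast between the cultures in the values of Twsg1 and Bmpr1a was not tested.

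Of 12 SMADs and intracellular regulators, 2 were 2-fold higher in vivo, where 2.81% of all genes were, and 1 in vitro, where 0.788% were. Smad7, an inhibitory SMAD of TGF-beta and BMP receptors, read 9.46 in the deleted and 8.13 in the control array in vivo (2.52-fold higher), and 8.23 and 7.85 in the deleted and control cultures. Smad6, the inhibitory SMAD more selective for BMP receptors, differed by -0.19 in vivo, as given above. Zeb2, a SMAD-binding repressor, read 7.70 in the deleted and 5.66 in the control array in vivo (4.11-fold higher, with probe sets from 0.67 to 2.04 on the log2 scale), and 8.65 in the deleted and 9.32 in the control culture (1.59-fold lower, with probe sets from -0.67 to 0.46). Lemd3, an inner nuclear membrane protein that binds receptor SMADs, was 2.17-fold higher in the deleted culture, with another probe set at -0.18.

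No gene of the other 2 lists that passed the level filter differed by 2-fold. Among 7 BMP-responsive transcription factors the largest differences were -0.45 for Atoh8 and 0.28 for Msx2 in vitro, and 0.63 for Gata2 and 0.31 for Hey1 in vivo. Msx2 was near the cutoff, at 5.58 in the deleted and 5.30 in the control culture. Hey1 read 5.99 in the deleted and 5.68 in the control array in vivo. Among 7 helix-loop-helix partners of ID proteins, Hes1 was at 0.57 and Twist1, a regulator of mesenchymal cells, at -0.51 in vitro, while in vivo Heyl was at 0.80 and Twist1 at -0.78. Heyl read 5.81 in the deleted and 5.00 in the control array in vivo, the latter under the cutoff. Twist1 read 9.22 and 10.0 in the same arrays. The muscle factors Myod1, Myf5 and Myog of this list did not pass the level filter, although Myog, with the in vivo values given above, was over the cutoff in the deleted array.

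**Figure D4:**
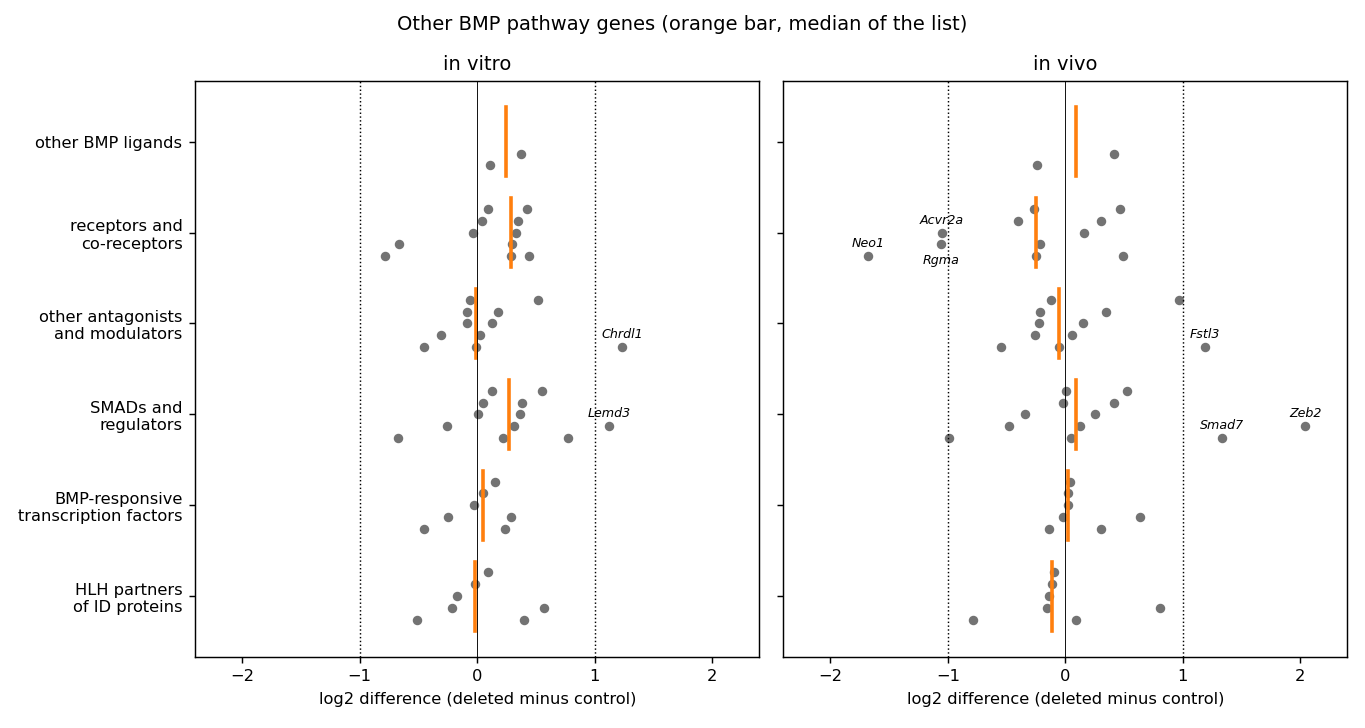
Log2 difference, deleted minus control, of the 50 other pathway genes over the level cutoff (points, 1 a gene, spread vertically for legibility) in vitro (left) and in vivo (right), by list; orange bars are list medians and dotted lines mark 2-fold. Genes past 2-fold are named, with 3 receptor or co-receptor genes lower in vivo and Zeb2 the highest at 2.04.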

How the data were processed

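The 4 arrays were deposited as 1 table of 45101 probe sets. The deposited values are on a log2 scale, read from their range, while software, background correction and normalization by the authors are not given in the sources used here. According to the labels' protocols, the template was poly(A) RNA, primed with T7 oligo(dT), and the target biotin-labelled antisense cRNA. Groups came from the sample titles.

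Columns were quantile normalized over the 4 arrays. The platform annotation gave 34945 probe sets 1 gene, 932 several and 9211 none; symbols were updated through RefSeq (GRCm38.p6), and 64 control probe sets were left out. Each gene was read on its brightest probe set, and genes whose mean reached the 40th percentile were analysed. Within a pair, log2 differences were taken and 2-fold counted. limma 3.58.1 (R 4.3.3; lmFit, eBayes, Benjamini-Hochberg at 0.05) fitted deletion and system. On simulated data with 200 genes changed by 2 and a noise SD of 0.2, it recovered 100% and called 7 unchanged genes of 10916, which checks the procedure only.

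The members and lists were chosen with earlier results of these data known. Every member was named, and of each list the genes at least 2-fold different in a pair or else the 2 most different. Bmpr1a, Twsg1 and genes used as markers were named outside that rule. Alternatives were the deposited values, loess within pairs, centring, other filters, other probe set choices, a length trend (lowess), thresholds of 1.5-fold and 3-fold, a variance trend and a model without system.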

Additional observations from a re-analysis of the deposited data

Results flagged for a closer look

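The in vitro and in vivo pairs differed in sign for 5 members. Differences are log2, deleted minus control, and with 1 array a group none of these contrasts between systems was tested. Grem1 stood at 1.30 in vivo and -0.30 in vitro. Id1 stood at 0.54 in vivo and -0.71 in vitro. The other 3 members of opposite sign were Bambi at 0.15 in vivo and -0.34 in vitro, Smad6 at -0.19 in vivo and 0.11 in vitro, and Id3 at 0.064 in vivo and -0.13 in vitro. Of all genes analysed, 44.7% also had opposite signs.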

How the results depend on the processing

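The 2-fold excess of Grem1 in vivo was present under all 8 alternative processings (1.30 to 1.33 on the log2 scale). Grem1 has 1 probe set, so only the deposited values, loess, centring and the length trend could change its value. A 1.5-fold threshold is passed by any 2-fold difference. At a 3-fold threshold, 0 members and 1 pathway gene were higher in vivo and 1 pathway gene was lower, and 0 pathway genes were higher in vitro. At 1.5-fold, 1 member was lower in vitro (Id1), 3 pathway genes were lower in vitro, and 6 were higher and 5 lower in vivo. Shares over all genes were counted at 2-fold only, so the counts at 1.5-fold and 3-fold are not read as an excess. With the level filter at the 60th percentile, 1 pathway gene was higher in vitro. The median over members lay between -0.22 and 0.07 in vitro, and between -0.06 and 0.13 in vivo. Removing the length trend turned the sign of 3 small in vitro differences, those of Id3 (0.17), Id2 (0.22) and Bmp4 (0.066). It put Id1 at -0.39 and Id4 at 0.61 on its brightest probe set, although the Id4 probe sets disagree in direction. The median of all probe sets put Id2 at -0.46 in vitro and Id4 at -0.18 in vivo; this setting joins probe sets that disagree. It also left 0 members called higher and 1 lower in vivo than in vitro, and a variance trend gave 2 called higher; the cause was not tested. These alternatives for the system term were chosen after seeing the data. The shared limma fit called 0 members under every alternative run. That fit pairs the arrays by system, and it also called 0 genes without the system term. The labels carry no replicate numbers, and with 1 array a group none could be left out. Signal near the background limits Bmp2, Bmp4 in the in vivo deleted array and Bambi in the deleted culture. It also limits the second Id2 probe set in vivo and the third on all arrays.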
